A study of Rattus norvegicus with 10 samples.

Results

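The sites described here are places in the rat cardiomyocyte transcriptome where a single N6-methyladenosine (m6A) peak of one culture condition lay across 2 or more separate peaks of the other. Members were the peaks up to 2000 bp wide, of either deposited list, that overlapped at least 2 peaks of the other list by 1 bp or more. There were 1621 of them among 133979 peaks in all. Of these, 814 were hypertrophic peaks that were split in quiescent cells and 807 were quiescent peaks that were split in hypertrophic cells. The member itself is called joined below, and the peaks it overlapped in the other list are called split, whichever is wider. The members were chosen by the measured start and end of each peak in both lists, so the counts, widths, gaps, scores and heights below describe them and carry no test.

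The cells were neonatal cardiomyocytes, cultured as primary cells from rats 1 to 3 days old. Hypertrophic cells were kept in M199 medium with 2% bovine serum and quiescent cells in the same medium without serum. Each condition had 2 libraries made by immunoprecipitation with an antibody against m6A, and both peak lists were called by the authors against immunoprecipitation with normal IgG, which came from hypertrophic cells only. Input RNA of both conditions was also sequenced and is not analysed here. Heights and scores below are therefore not corrected for the amount of RNA. Its part in differences between the conditions was not tested. Cultures of newborn heart usually retain some other cell types, and with no gene names in the lists the label could not be set against cardiomyocyte markers.

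m6A is a methyl mark placed on adenosines within messenger RNA by a methyltransferase complex. It tends to lie in long internal exons and near stop codons, often with several marked adenosines close together, and it affects splicing, translation and decay of the RNA. The RNA is fragmented before sequencing, so reads spread around each marked base and neighbouring marks can merge into a single stretch of enrichment. A peak caller must decide where such a stretch ends. It reports 1 summit for each peak, whatever the number of marks beneath it, so a merged peak also hides all local maxima but the highest. Peaks from spliced RNA that are mapped to the genome can also be interrupted at introns.

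The deposited lists held 65539 hypertrophic and 68440 quiescent peaks. The score of a peak is the authors' own value, related to its p-value, with a floor of 50 in both lists and many peaks at exactly 3100, which only few exceed. The summit height is the authors' pileup of reads at the highest base of the peak, with a largest value of 164 in both lists and with no scaling stated. Each condition was represented by 1 list, so no value has a replicate error, and Wilson 95% intervals cover counting error only. Where scores or heights of the lists are set side by side, whether their scales are comparable was not tested. Positions are in rn4 and are counted from 1. No gene annotation or sequence of that build was used here, so sites are named by position and no sequence is printed.

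Joined forms were nearly evenly divided between the conditions. The 814 hypertrophic members made up 1.26% of hypertrophic peaks up to 2000 bp wide (Wilson interval 1.17 to 1.34%), and the 807 quiescent members 1.19% of quiescent ones (interval 1.11 to 1.28%). Among peaks of that width that overlapped any peak of the other list, the shares were 1.70% and 1.68%. The rule used these overlaps, so the shares are a description of the lists. Most sites had the simplest form, with exactly 2 split peaks: 791 of the hypertrophic members (97.2%) and 792 of the quiescent members (98.1%). Another 22 and 14 had 3 split peaks, and 1 member in each direction had 4.

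Joined peaks were wide and high-scoring for their lists, though 167 hypertrophic and 114 quiescent ones were narrower than their widest split peak. Hypertrophic joined peaks had a median width of 762 bp, with quartiles of 496 and 1152 bp, and quiescent joined peaks one of 825 bp, with quartiles of 592 and 1136 bp. Pairs in which a hypertrophic and a quiescent peak overlapped only each other, and neither was wider than 2000 bp, had medians of 373 and 379 bp. There were 45436 such pairs, called single-partner pairs below. The median score was 332 for hypertrophic and 484 for quiescent joined peaks, against 156 and 169 in the single-partner pairs. The median summit height was 26 for hypertrophic and 23 for quiescent joined peaks, against 22 and 20 in the pairs. By ratio, the joined peaks thus differed from single-partner peaks more in width and score than in pileup. Width is closely tied to the rule, since a wider peak can reach more neighbours.

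The share of peaks that were split in the other list rose with width in both directions. Up to 300 bp, the members were 51 of 27022 hypertrophic peaks (0.189%) and 34 of 28377 quiescent ones (0.120%). From 501 to 800 bp the shares were 2.11% and 2.21%, and from 801 to 1200 bp they were 4.69% and 5.43%. From 1201 to 2000 bp, they were 185 of 2282 hypertrophic peaks (8.11%, Wilson interval 7.06 to 9.30%) and 167 of 2284 quiescent ones (7.31%, interval 6.31 to 8.45%). The directions changed places by score. From a score of 100 to below 200, the member share was 0.980% in the hypertrophic list (interval 0.846 to 1.14%) and 0.633% in the quiescent list (interval 0.526 to 0.760%), and from 800 to below 1600 the shares were 3.68% (interval 3.04 to 4.46%) and 5.02% (interval 4.33 to 5.82%). From 400 to below 800 the shares were 3.54% and 3.28%. From 1600 to below 3100 they were 3.55% (interval 2.59 to 4.86%) and 4.73% (interval 3.71 to 6.02%). Relatively more weak hypertrophic peaks were therefore split if scores of the lists can be set side by side. The higher quiescent shares from a score of 800 upward were less clear, since the intervals overlapped.

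**Figure D1:**
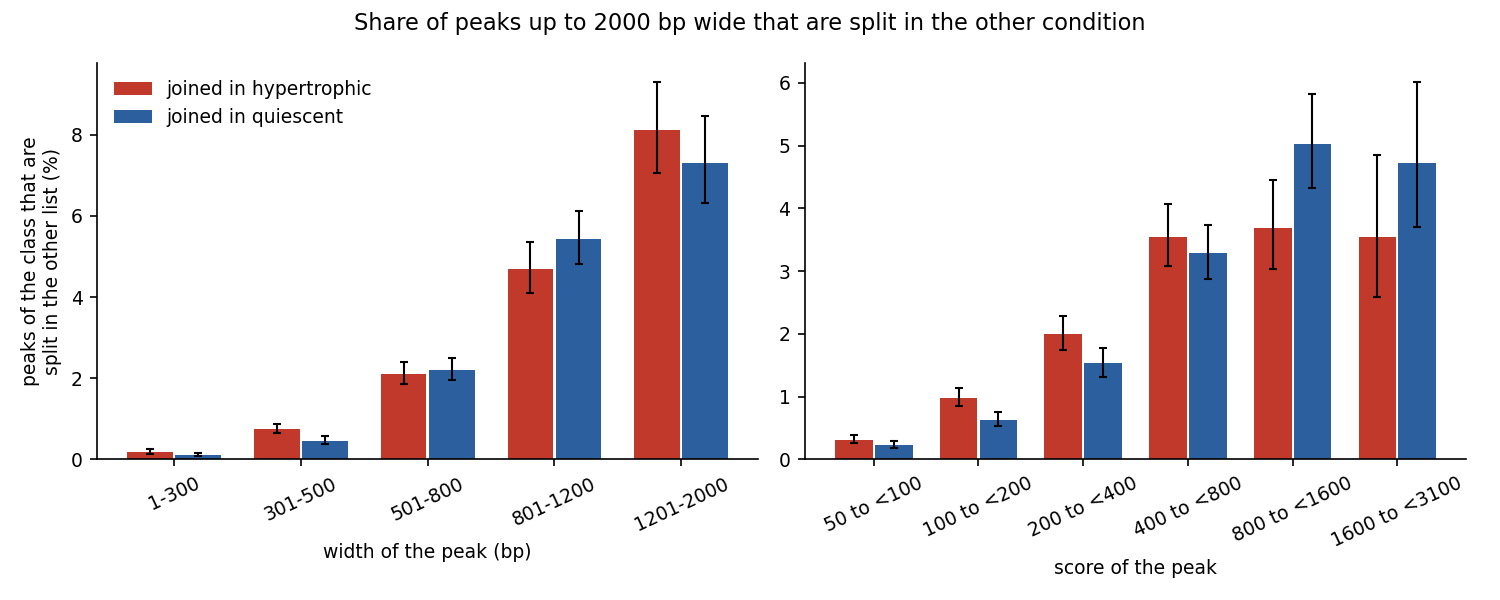
Share of all peaks of a class (in %, y axis from 0) that were split in the other list, by width of the peak in bp (left) and by its score (right), with Wilson 95% intervals as bars. Shares climb with width to 8.11% of hypertrophic and 7.31% of quiescent peaks, and from a score of 800 to below 1600 the quiescent share is 5.02% against 3.68%.

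The split peaks lay close together. The largest gap between neighbouring split peaks had a median of 41 bp in both directions, with quartiles of 19 and 75.8 bp at hypertrophic joined sites and of 18 and 78.5 bp at quiescent ones. It was 50 bp or less at 479 of the 814 hypertrophic joined sites (58.8%) and at 454 of the 807 quiescent joined sites (56.3%). It was 100 bp or less at 85.1% and 83.4%. Long gaps were uncommon: over 200 bp there were 25 hypertrophic joined sites (3.07%, Wilson interval 2.09 to 4.49%) and 44 quiescent joined sites (5.45%, interval 4.09 to 7.24%). The longest were 607 bp and 1261 bp. The distributions nearly coincided up to the median and parted in the long tail.

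**Figure D2:**
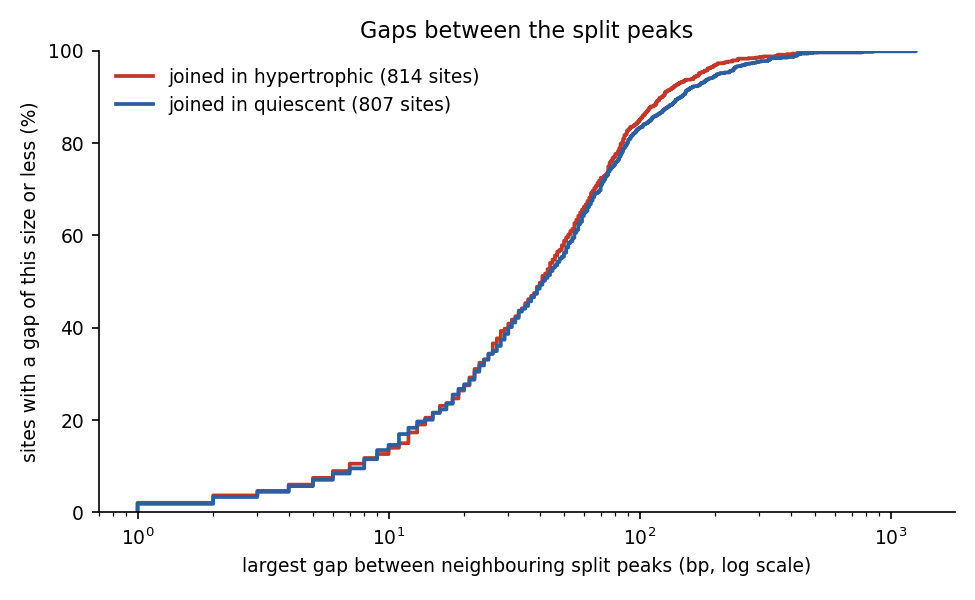
Cumulative share of sites (in %) by the largest gap between neighbouring split peaks (bp, log scale), for 814 hypertrophic joined and 807 quiescent joined sites. The curves cross 50% at 41 bp in both directions, and the quiescent joined curve is lower in the tail, where 44 sites against 25 have gaps over 200 bp.

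Within a site the split peaks were ranked by height, width and score, so some inequality arises by construction. Neighbouring peaks outside the members were not compared in this way. The tallest split summit was a median of 1.68 times the second tallest at hypertrophic joined sites (quartiles 1.27 and 2.64) and 1.58 times at quiescent joined sites (quartiles 1.25 and 2.45). The widest split peak had a median width of 538 bp in quiescent cells and 520 bp in hypertrophic cells, and the narrowest one of 303 and 294 bp. The weakest split peak often had a low score. Its score was below 100 at 453 hypertrophic joined sites (55.7%) and at 469 quiescent joined sites (58.1%), and below 60 at 142 (17.4%) and 193 (23.9%). Its median score was 92.1 in the quiescent list and 86.1 in the hypertrophic list. Across both lists scores below 100 were common, at 27106 of 67711 quiescent and 27093 of 64836 hypertrophic peaks up to 2000 bp wide. The lowest of 2 or more scores is low partly by construction, so the shares below 100 and below 60 are not read as a trait of split peaks. The share of all peaks below 60 was not counted. The outermost summits of the split peaks were a median of 476 bp and 467 bp apart. With ties left out, the tallest split peak came first along the chromosome at 351 of 769 hypertrophic joined sites (45.6%, Wilson interval 42.2 to 49.2%) and at 365 of 767 quiescent joined sites (47.6%, interval 44.1 to 51.1%).

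The hypertrophic joined sites with the highest scores below 3100 show these features. At chr1:76313815-76315005 a hypertrophic peak of 1191 bp scored 3069, with a summit height of 65. It lay across quiescent peaks of 650 and 503 bp that were 41 bp apart, scored 1488 and 484, and reached heights of 37 and 21. Both quiescent summits were lower than the joined one. At chr9:108501596-108503216 the gap was 2 bp, and the joined summit of 58 lay 470 bp from the taller quiescent summit of 70, so the form changed while the pileup was higher on the split side. At chr18:74858308-74859781 the joined peak scored 2790 with a height of 76, and its summit was 1 bp from a quiescent summit of 67. The second quiescent peak there stood 426 bp away, with a height of 8 and a score of 78.5. At chr10:11048199-11049724 the hypertrophic summit of 136 was 4 bp from a quiescent summit of 119, and a gap of 7 bp set off a second quiescent peak with a height of 44. The site at chr2:172810780-172811505, with a joined score of 2681, met the rule through an overlap of only 3 bp with its second quiescent peak.

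The quiescent joined sites of the highest scores varied in the height of their hypertrophic pieces. At chr14:101678264-101679846 a quiescent peak of 1583 bp scored 3007 with a height of 41, while the hypertrophic pieces, 15 bp apart, scored 55.7 and 408 with heights of 7 and 16. At chr15:22577488-22579272 a score of 3016 and a height of 46 stood against pieces with scores of 1121 and 311 and heights of 31 and 26. Its joined summit lay in the lower hypertrophic peak. At chr17:95087050-95088933 the joined summit of 69 was at the same base as the taller hypertrophic summit of 54, and a second hypertrophic peak of height 21 lay 59 bp from the first. At chr8:124315463-124316587 the heights were equal, 116 in the quiescent peak and 116 in the taller hypertrophic peak, with a gap of 83 bp to a neighbour of height 83. At chr8:21583076-21584469, which scored 3082, heights of 86 and 85 matched 4 bp apart, and the second hypertrophic peak was reached by 9 bp only. Thus the highest-scoring sites ranged from equal pileup in both conditions to a clear difference.

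**Figure D3:**
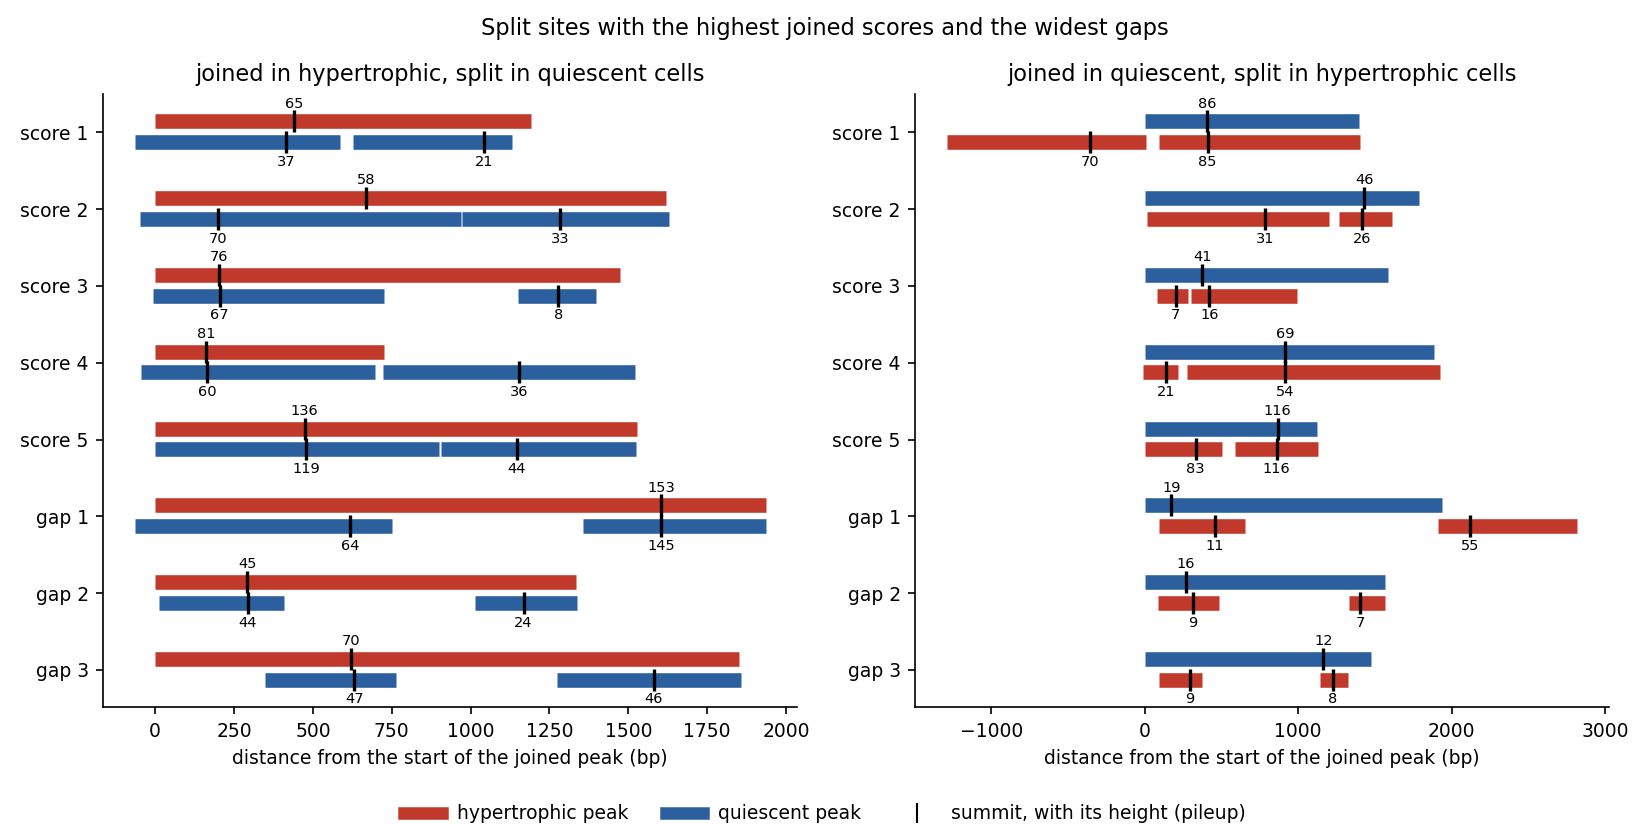
Joined peaks (upper bar of each pair) and the split peaks of the other list (lower bars) at the 5 members with the highest joined score below 3100 (score 1 to 5, in falling order) and the 3 with the widest gap (gap 1 to 3) per direction, by distance from the start of the joined peak in bp. Black ticks are summits with their heights. In the first left-hand site a summit of 65 lies above pieces of 37 and 21, and in the first right-hand site a neighbour is only touched at its edge.

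The 3 widest gaps of quiescent joined sites lay under low joined summits. At chr6:1288496-1290061 a quiescent peak of 1566 bp with a height of 16 bridged 850 bp between hypertrophic peaks of heights 9 and 7. At chr16:27373280-27374752 a quiescent peak with a height of 12 bridged 770 bp between hypertrophic peaks of heights 9 and 8. The 1261 bp gap at chr4:26289276-26291211 lay between hypertrophic peaks of heights 11 and 55, of which the taller one was overlapped by 23 bp only. The 3 hypertrophic joined sites with the widest gaps were taller. Over all sites with gaps above 200 bp, the median joined height was 25 at the 44 quiescent and 40 at the 25 hypertrophic members, against 23 and 26 over all members. The gap was 607 bp both at chr10:39345018-39346952, where a joined summit of 153 coincided with a quiescent summit of 145, and at chr2:62548127-62549459, where summits of 45 and 44 lay 2 bp apart. At chr19:39871790-39873640, with a gap of 513 bp, the joined summit of 70 lay 11 bp from the taller of 2 quiescent summits of nearly equal height, 47 and 46.

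Members with the most split peaks had 4 or 3 pieces, which varied in size. At chr11:81200791-81201946 a hypertrophic peak of 1156 bp with a height of 14 lay over 4 quiescent peaks, whose heights were 5, 8, 9 and 6. At chr16:21168738-21170142 a quiescent peak of 1405 bp with a height of 17 and a score of 778 lay over 4 hypertrophic peaks with heights of 9, 6, 7 and 5 and scores from 50.4 to 63.1, all just above the calling floor. At chr11:68236259-68238109 a hypertrophic peak scoring 2532, with a height of 49, covered 3 quiescent peaks with heights of 18, 22 and 9. Sites with 3 pieces were not always weaker in the split form. At chr1:21832604-21834586 a quiescent peak with a score of exactly 3100 and a height of 40 overlapped hypertrophic peaks with heights of 51, 33 and 13, and the first of these was taller than the joined summit. At chr3:47422142-47423054 the joined quiescent height was 51, and the hypertrophic pieces reached 14, 48 and 15. At chr8:124352438-124354237 the hypertrophic height was 89, and the quiescent pieces reached 69, 55 and 50.

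Sites of different kinds met the same rule. In the first, the joined peak contained the summits of 2 or more split peaks and so covered more than 1 local maximum of the other list. This held for 533 of the 814 hypertrophic members (65.5%, Wilson interval 62.1 to 68.7%) and for 569 of the 807 quiescent members (70.5%, interval 67.3 to 73.6%). In the second, the joined peak held 1 split summit and overlapped another split peak without reaching its summit, as at 269 hypertrophic (33.0%) and 227 quiescent (28.1%) members. A further 12 and 11 joined peaks held no split summit. The smallest overlap of a site had a median of 284 bp at hypertrophic members of the first kind and of 39 bp at the other hypertrophic members. For quiescent members the medians were 268 bp and 41.5 bp. The median width of hypertrophic members was 959 bp in the first kind and 470 bp otherwise, and that of quiescent members 941 and 548 bp. The split summits were used to tell these kinds apart only after the values had been seen.

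At some of these places both lists held several peaks, with the border between them set at different bases. A split peak also overlapped another peak of the joined list at 192 hypertrophic members (23.6%) and 187 quiescent members (23.2%), and such a place could count as joined in both directions. Followed through all overlaps, the 1621 members fell into 1430 separate groups of overlapping peaks. Of these, 630 held hypertrophic joined members alone, 623 held quiescent joined members alone, and 177 held both. Groups of exactly 1 hypertrophic and 2 quiescent peaks numbered 605, those of 2 hypertrophic and 1 quiescent peaks 609, and those of 2 peaks in each list 167. Counted by group, 631 places had more quiescent than hypertrophic peaks, 627 had more hypertrophic than quiescent peaks, and 172 had equal numbers. The even division of the joined forms was therefore also present when each place was counted once.

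The joined summit usually lay in the tallest split peak. It did so at 628 of the 814 hypertrophic members (77.1%, Wilson interval 74.1 to 79.9%) and at 598 of the 807 quiescent members (74.1%, interval 71.0 to 77.0%). It lay in a lower split peak at 174 (21.4%) and 186 (23.0%), in a gap between split peaks at 7 and 16, and beyond the outer ends of all split peaks at 5 and 7. At 45 and 40 sites the tallest split summits were tied, and a joined summit in either of them was counted as in the tallest. The split peak of the highest score held the joined summit less often at hypertrophic members, at 558 (68.6%), and at 579 (71.7%) of the quiescent members. Split peaks of the highest score were thus not always those of the highest pileup. Most sites had exactly 2 split peaks, so an even choice between them is the plain reference. Where a split peak also touched another peak of the joined list, the tallest held the joined summit at 113 of 192 hypertrophic members (58.9%) and 98 of 187 quiescent members (52.4%). With fewer than 2 split summits inside the joined peak, the shares were 66.9% and 57.1%.

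Joined and split summits often fell at nearly the same base. The distance from the joined summit to the tallest split summit had a median of 23 bp at hypertrophic members (quartiles 5 and 226 bp) and of 37 bp at quiescent members (quartiles 7 and 244 bp). It was 50 bp or less at 508 (62.4%) and 456 (56.5%) of the sites, against 79.7% of the single-partner pairs. The median distance in those pairs was 13 bp.

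How often the tallest split peak held the joined summit varied with how unequal the split summits were. With untied summits less than 1.2-fold apart, it held the joined summit at 70 of 117 hypertrophic members (59.8%, Wilson interval 50.8 to 68.3%) and at 54 of 112 quiescent members (48.2%, interval 39.2 to 57.4%). With summits 3-fold or more apart, it did so at 139 of 159 (87.4%, interval 81.4 to 91.7%) and at 124 of 140 (88.6%, interval 82.2 to 92.8%). Even there, 18 hypertrophic and 15 quiescent members had their summit in a lower split peak. Where the joined summit lay in a lower split peak, the tallest was a median of 1.41 times the second at hypertrophic and 1.38 times at quiescent members. These classes include members whose tallest split summit lay outside the joined peak. Among members with 2 or more split summits inside, a restriction added after the values were seen, the tallest split peak held the joined summit at 47 of 74 hypertrophic (63.5%) and 42 of 82 quiescent (51.2%) members in the class under 1.2-fold. In the class of 3-fold or more it did so at 90 of 92 (97.8%) and 86 of 86 members. Where the joined peak covered the local maxima of both pieces, the leading summit thus differed between conditions more often when these were of similar height.

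**Figure D4:**
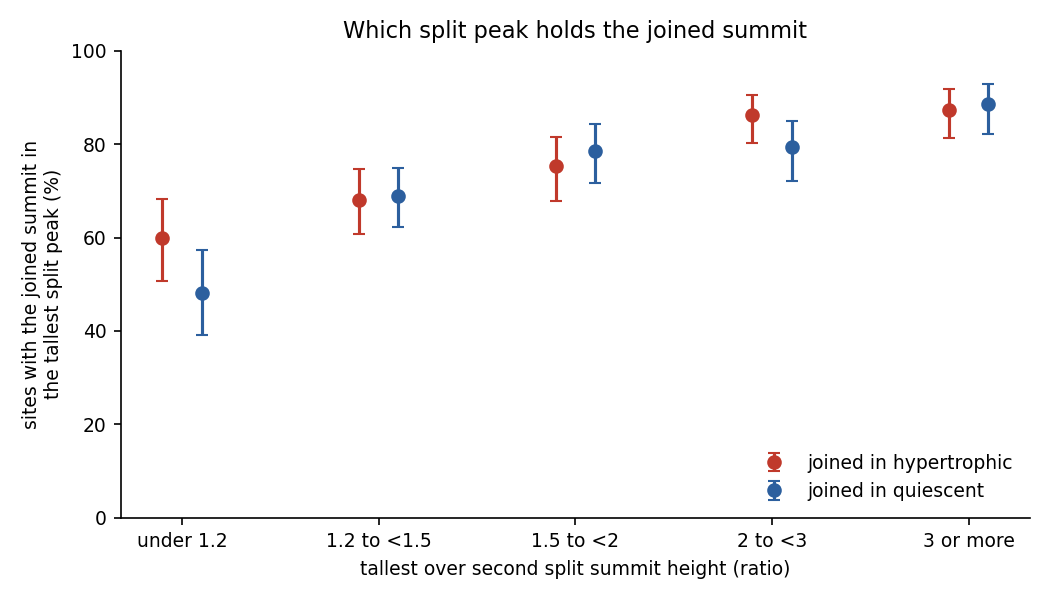
Share of sites (in %) whose joined summit lay in the tallest split peak, by the ratio of the tallest to the second tallest split summit, with Wilson 95% intervals and ties left out. Shares run from 59.8% and 48.2% in the lowest class to 87.4% and 88.6% in the highest.

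Summit heights differed between the directions. At hypertrophic members the joined summit was taller than every split summit at 505 of 814 sites (62.0%, Wilson interval 58.7 to 65.3%), equal at 45 and lower at 264. At quiescent members it was taller at 365 of 807 sites (45.2%, interval 41.8 to 48.7%), equal at 36 and lower at 406. Across the single-partner pairs the hypertrophic summit was the taller one in 62.7% and the quiescent summit in 31.6%, and heights were equal in 5.65%. The hypertrophic joined share was thus near that of the pairs, and the quiescent joined share was above it. The median log2 ratio of joined to tallest split height was 0.17 at hypertrophic members (quartiles -0.13 and 0.49) and -0.03 at quiescent members (quartiles -0.38 and 0.42). The quiescent share depended on which sites were counted. It was 50.3% with an overlap of at least 50 bp, 52.6% where split peaks touched no other quiescent peak, 57.5% with hypertrophic peaks within 100 bp joined first, and 35.6% with scores of 100 or more in both lists. The hypertrophic share ran from 55.9 to 74.5% over the alternatives. Apart from these, some members had a split peak that also touched another peak of the joined list. There the shares were 73 of 192 hypertrophic (38.0%) and 39 of 187 quiescent members (20.9%), both below those of the pairs.

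**Figure D5:**
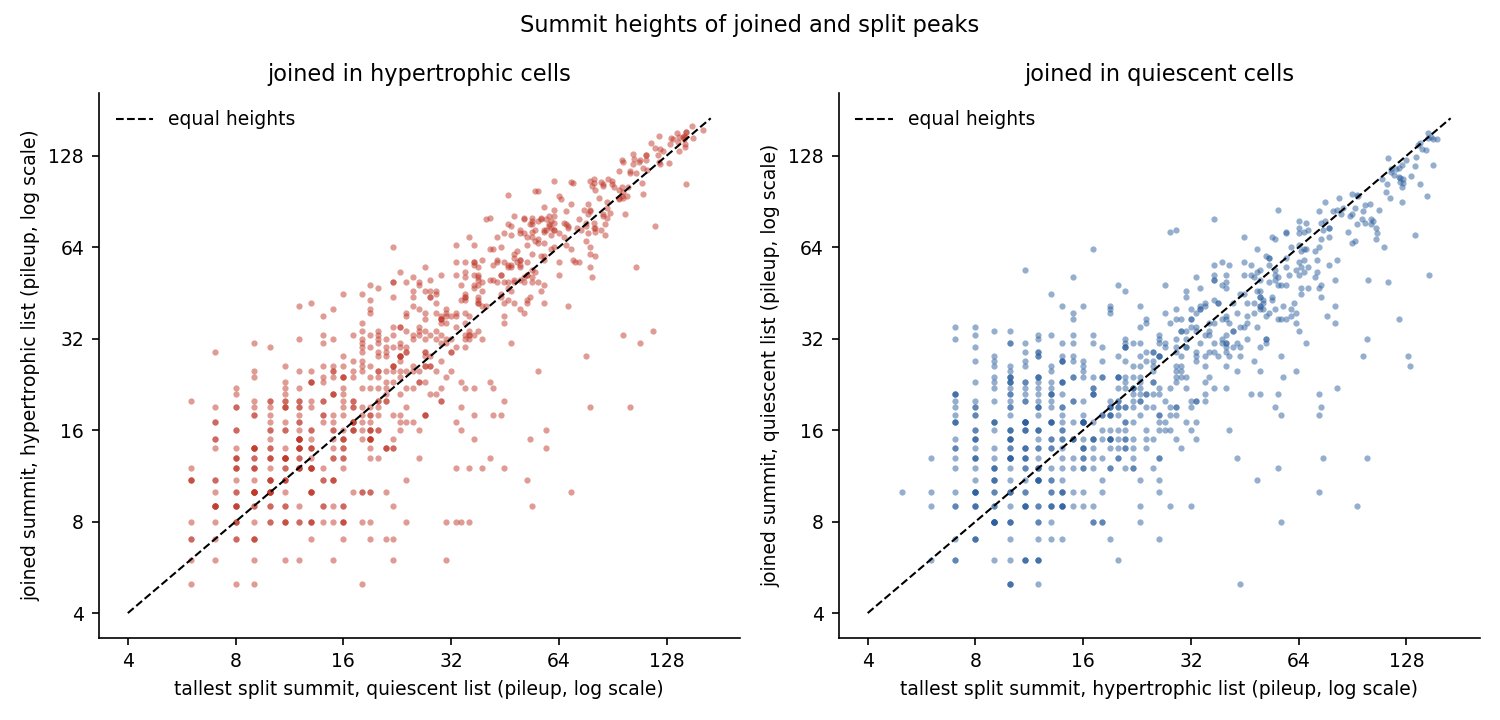
Joined summit height (y axis) against the tallest split summit height of the other list (x axis), in pileup on log scales, 1 point per site, for hypertrophic joined (left) and quiescent joined (right) sites. The dashed line marks equal heights, and 505 of 814 points lie above it on the left against 365 of 807 on the right.

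Sites of the first kind, with 2 or more split summits inside the joined peak, had taller joined summits. The joined summit exceeded every split summit at 397 of 533 such hypertrophic members (74.5%, Wilson interval 70.6 to 78.0%) and at 313 of 569 quiescent members (55.0%, interval 50.9 to 59.0%). At the other members it did so at 108 of 281 (38.4%) and 52 of 238 (21.8%). In those other members the tallest split summit can lie outside the joined peak that it is compared with. Joined summits were also the taller ones more often at gaps over 100 and up to 200 bp than at the shortest gaps, in both directions. For gaps over 100 and up to 200 bp the joined summit was the taller at 69 of 96 hypertrophic (71.9%) and 52 of 90 quiescent members (57.8%). For gaps up to 25 bp it was the taller at 160 of 280 (57.1%) and 117 of 277 (42.2%). The share did not rise steadily with the gap. For gaps over 50 and up to 100 bp it was 68.2% and 41.1%. For gaps over 200 bp, at 25 and 44 members, it was 64.0% and 56.8%.

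Scores of joined peaks exceeded those of their pieces more often than heights did in quiescent cells. The joined score was above every split score at 495 hypertrophic members (60.8%, Wilson interval 57.4 to 64.1%) and at 575 quiescent members (71.3%, interval 68.0 to 74.3%). In the single-partner pairs, where each score is set against only 1 other, the hypertrophic score was the higher in 46.3% and the quiescent score in 53.0%. The median log2 ratio of the joined score to the best split score was 0.26 at hypertrophic members (quartiles -0.40 and 0.96) and 0.64 at quiescent members (quartiles -0.09 and 1.63). A joined score at least 3 times the best split score was found at 79 hypertrophic (9.71%) and 212 quiescent members (26.3%). Where height and score disagreed, quiescent joined peaks mostly had the lower summit and the higher score, as at 189 members (23.4%) against 11 (1.36%) with the reverse. At hypertrophic members the same numbers were 60 (7.37%) and 86 (10.6%). The single-partner pairs leaned the same way, with the hypertrophic summit taller in 62.7% and the quiescent score higher in 53.0%. Pairs in which height and score disagreed, or scores differed 3-fold, were not counted. These member counts are therefore not read as particular to joined sites. Both lists were called against IgG from hypertrophic cells, and the part of that control in these differences was not tested.

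The largest differences in summit height lay in sites of opposite geometry. Joined summits that stood highest above their tallest piece were in peaks that contained both split summits. At chr10:98629035-98630919 a hypertrophic peak with a score of exactly 3100 had a height of 95, against 41 and 46 in its quiescent pieces. At chr1:184636876-184637955 the hypertrophic height was 106 and the quiescent heights were 62 and 40, in peaks with a gap of 407 bp between them. At chr6:10643253-10644525 they were 98 against 34 and 55. In the quiescent direction, the peak at chr10:47362150-47363619 had a height of 63 against 17 and 8, with a score of 2590 against 321 and 76.1. The peak at chr11:17145661-17146410 reached 73 against 29 and 7, and the one at chr3:111876575-111878182 reached 72 against 10 and 28. These 6 sites differed in pileup as well as in form. Whether they also differed in the amount of RNA was not tested.

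Joined summits that stood farthest below their tallest piece were all in peaks that overlapped a tall neighbour without reaching its summit. At chr4:154159439-154160386 a hypertrophic peak with a height of 34 overlapped a quiescent peak with a height of 117 by 27 bp, and covered a second quiescent peak of height 29. At chr5:75552197-75552723 a height of 31 stood against pieces of 29 and 108, and the taller was overlapped by 1 bp. At chr6:27226192-27226706 heights of 101 and 12 stood against a joined height of 19. In the quiescent direction, a peak with a height of 26 at chr11:37963630-37964271 overlapped a hypertrophic peak of 3350 bp and height 131 by 85 bp. The quiescent peaks at chr12:4484187-4484735 and chr2:45704852-45705745 had heights of 28 and 52, against hypertrophic pieces of 129 and 52 at the first and of 148 and 51 at the second. At all 6 sites the tall piece also overlapped another peak of the joined list, and most of its length lay outside the named joined peak.

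The limits of the rule passed through a continuum. The widest members were a hypertrophic peak of 1979 bp at chr13:106460931-106462909, with a score of 2502, and a quiescent peak of 1995 bp at chr1:250694250-250696244, with a score of 626. The next to them were a hypertrophic peak of 1973 bp at chr2:56071050-56073022 and a quiescent peak of 1990 bp at chr13:32277442-32279431. Just outside lay hypertrophic peaks of 2005 bp (chr11:65507840-65509844, score 1461) and 2022 bp (chr1:9010871-9012892, score 339.6), and quiescent peaks of 2003 bp (chr14:37538463-37540465, score 1442) and 2005 bp (chr3:104966068-104968072, score 1656). In all, 81 of 703 hypertrophic (11.5%) and 93 of 729 quiescent peaks (12.8%) wider than 2000 bp overlapped 2 or more peaks. These shares were higher than in any width class within the limit. The smallest overlap was 5 bp or less at 33 hypertrophic and 27 quiescent members. Another 42 hypertrophic and 32 quiescent peaks overlapped a single peak and fell 1 to 5 bp short of a second. Few members had such high scores that they cannot be ranked: 17 hypertrophic and 19 quiescent joined peaks scored 3100 or more, of which 14 and 18 scored exactly 3100.

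Members were spread over all chromosomes in both directions. The share of peaks up to 2000 bp that were joined ran from 0.833% (chromosome 8) to 1.63% (chromosome 7) in the hypertrophic list and from 0.868% (chromosome 18) to 1.74% (chromosome 7) in the quiescent list. The Wilson intervals on chromosome 7 were 1.26 to 2.09% and 1.37 to 2.21%. Chromosome 3 had 68 hypertrophic and 47 quiescent members, and chromosome 19 had 19 and 29. Members lay in 948 windows of 1 Mb, of which 551 held a single member and 59 held 4 or more. The window with the most, chosen after its values were seen, was the first 1 Mb of chromosome 2, with 11 hypertrophic and 6 quiescent members among 110 hypertrophic and 157 quiescent peaks.

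The even division of joined forms depended little on the settings, but the number of sites did. With peaks under a score of 100 left out of both lists, 359 hypertrophic and 331 quiescent members remained, and with split peaks up to 100 bp apart counted as 1 peak, 121 and 134 sites met the rule.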

How the data were processed

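The deposited files are 1 peak list and 1 summit list per condition, each called by the authors against normal IgG, per the names of the lists. Per the submitters' processing notes, CASAVA 1.8, TopHat, MACS 1.4 and rn4 were used, with no parameters stated. The sources used here do not say whether a list pools both immunoprecipitates. The score in the deposited peak lists has the layout of MACS 1.4, where it is a multiple of minus the log10 of a p-value. The deposited summit lists hold a signal, the pileup height, in whole numbers.

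Peaks and summits were joined by peak name, and overlaps were counted in Python 3.11.15 (numpy 2.4.6, pandas 2.3.3, scipy 1.17.1) and checked with bedtools 2.31.1, which gave the same members. A gap is the number of bases between neighbouring split peaks. On simulated data, made by cutting 200 peaks of the hypertrophic list of 65539 in a copy of it, 200 were found and 0 others. The members and comparisons were chosen with earlier results of these data known. Sites named are, per direction, the 5 highest joined scores below 3100, the 3 with most pieces, the 3 widest gaps, the 3 largest rises and falls in height, and the widest members, with ties broken by score, width and position. Read totals, and so the depth, are unknown. Alternatives changed the overlap, width limit, score limits, gap and form of site.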

Additional observations from a re-analysis of the deposited data

How the results depend on the processing

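The ratio of hypertrophic to quiescent joined sites, 1.009 as reported, ran from 0.903 to 1.085 over 8 alternatives, the last of which was chosen after seeing the data. With the width limit at 1000 bp there were 537 hypertrophic and 531 quiescent members, the joined summit lay in the tallest split peak at 73.7% and 70.1%, and the median gaps were 35 and 36 bp. With scores of 100 or more in both lists there were 359 and 331 members, the hypertrophic share was 74.1% and the hypertrophic median gap 45 bp. With split peaks within 100 bp joined first, which removes short gaps by construction, there were 121 and 134 members, shares of 71.9% and 69.4%, and median gaps of 141 and 158 bp. Where split peaks touched no other peak of the joined list, the shares were 82.8% and 80.6%. With 2 or more split summits inside the joined peak, 533 hypertrophic members were left and the shares were 82.6% and 81.2%. With an overlap of at least 50 bp the quiescent share was 77.6%. The other 26 values of these results stayed within 1.5 times the reported count, or within the 95% interval of the reported share or median. Of 32 shares of joined summits or scores above every split value, 19 left the interval of the reported share. The share of members with the joined score above every split score ran from 55.9 to 77.5% (hypertrophic) and from 68.6 to 82.8% (quiescent). No paired analysis was possible because each condition has 1 list, which carries no replicate number, and no replicate could be left out for the same reason. The depth of the libraries is unknown, so how far low pileups limit the splitting of weak peaks was not tested.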

Other observations

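In the first 1 Mb of chromosome 2, members chosen after their values were seen recurred in near-identical form. The hypertrophic peaks at chr2:467634-468070 and chr2:503473-503907 were 437 and 435 bp wide, both with a height of 16, and each was split in quiescent cells with a largest gap of 22 bp. The quiescent peaks at chr2:467086-467832 and chr2:502924-503669 were 747 and 746 bp wide, both with a height of 17, and each was split in hypertrophic cells with a largest gap of 42 bp. They overlapped the hypertrophic peaks just named, so each place was counted in both directions. Whether these places are copies of one sequence that share reads was not tested, since no rn4 sequence was used here.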
